A study of Mus musculus with 6 samples.

Results

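The 4 Id genes, Id1 to Id4, were examined in a ChIP-Seq study of phosphorylated Smad2 (pSmad2) in mouse E14 TG2A embryonic stem cells. They were taken by name from the 22350 protein-coding genes of the annotation, together with the 50 kb on each side of each gene, where 10 coding genes lie in all. All cells were first treated for 6 h with 10 µM SB-431542, and then for 18 h with 25 ng/ml Activin, with DMSO at a dilution of 1 in 5000, or with 10 µM SB-431542. These treatments are called Activin, DMSO and SB. Each was represented by 1 ChIP library, made with an antibody to pSmad2, and 1 input library of the same chromatin, so all tests compare libraries and cover counting error only, not the spread between cultures. Activin is a ligand of the TGFβ family whose receptors phosphorylate Smad2, SB-431542 blocks those receptors, and DMSO is the vehicle, under which signaling by the cells' own ligands goes on.

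The Id proteins are helix-loop-helix proteins without a DNA-binding region. They pair with E proteins, which are basic helix-loop-helix factors, and keep them from DNA. In embryonic stem cells the Id genes are best known as targets of BMP signaling through Smad1 and Smad5, where they hold back differentiation. SB-431542 does not block the BMP receptors, so the Id genes ask what a pSmad2 ChIP holds at targets of the neighbouring pathway when the Activin receptors are shut.

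The libraries held between 9757735 and 13148559 tags of 35 bp, and SB ChIP was the shallowest. Of the ChIP tags, 19.9% to 24.6% repeated the position and strand of another tag, against 5.64% to 6.94% of the input tags. Over all genes SB ChIP ran above the other libraries, with a median ratio at gene starts of 1.18 to DMSO ChIP and 1.23 to Activin ChIP, and it held more tags where GC was high. Both facts touch every ratio given here, and GC expectations are given below for the start windows and listed sites of the Id genes and for the pathway genes.

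In the SB ChIP, the highest tag pileup of each Id gene lay at a different place relative to the gene. For Id1 it was 1044 bp upstream of the start, for Id2 2864 bp upstream, for Id3 1295 bp downstream in the intron, and for Id4 33547 bp upstream, between genes. Pileup means the number of tags, each extended to its 200 bp fragment, that cover a base. A further pileup lay in the coding exon of Id1, 286 bp past the start. The 151 bases centred on each are shown because the later results turn on these places. They are read from the plus strand of mm9 (NCBIM37), and capitals mark CAGAC, a Smad-binding sequence, and GGCGCC, a GC-rich sequence known from BMP-responsive elements bound by Smad1 and Smad5, on either strand.
Id1 upstream, chr2:152560868-152561018: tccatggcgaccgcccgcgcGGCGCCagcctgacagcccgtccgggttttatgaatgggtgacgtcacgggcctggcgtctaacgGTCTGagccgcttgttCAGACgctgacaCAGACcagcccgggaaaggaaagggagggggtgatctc
Id2 upstream, chr12:25783746-25783896: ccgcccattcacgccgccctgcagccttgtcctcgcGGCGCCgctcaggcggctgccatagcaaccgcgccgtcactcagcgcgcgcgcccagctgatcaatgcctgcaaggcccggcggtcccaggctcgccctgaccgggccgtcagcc
Id3 intron, chr4:135700632-135700782: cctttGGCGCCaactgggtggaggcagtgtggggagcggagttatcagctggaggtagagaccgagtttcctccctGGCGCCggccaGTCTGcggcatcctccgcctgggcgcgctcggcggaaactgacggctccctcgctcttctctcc
Id4 upstream, chr13:48323174-48323324: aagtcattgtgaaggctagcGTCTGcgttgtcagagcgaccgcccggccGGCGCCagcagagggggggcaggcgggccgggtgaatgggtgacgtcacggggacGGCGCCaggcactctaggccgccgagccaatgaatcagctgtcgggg
Id1 coding exon, chr2:152562198-152562348: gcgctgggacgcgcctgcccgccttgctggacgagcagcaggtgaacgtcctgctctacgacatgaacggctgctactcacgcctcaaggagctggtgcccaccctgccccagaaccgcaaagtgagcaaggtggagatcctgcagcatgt

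GGCGCC stood in all 4 of the windows outside exons, once each at Id1 and Id2 and 2 times each at Id3 and Id4. It was not in the exon window of Id1. Around the highest SB pileup of the 4343 sites that the SB list holds, 4.86% of 151-base windows had GGCGCC, and of the 1251 windows with 60% GC or more 12.2% did. The 4 Id windows had 64.9%, 74.2%, 66.9% and 68.9% GC for Id1 to Id4. CAGAC was found 3 times at Id1, once at Id3 and once at Id4, and not at Id2, against 35.5% of the SB windows with at least 1 match. CAGA, which every CAGAC contains, was present in 83.9% of the SB windows and matched 3, 0, 1 and 3 times in the Id1 to Id4 windows. The palindrome GTCTAGAC was in none of them and in 0.207% of the SB windows. Each motif was searched on both strands, and a match describes the letters only.

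The Id1 and Id4 upstream windows, on different chromosomes, shared a run of 20 bases on the same strand, tgaatgggtgacgtcacggg. Only 2 of the 4343 SB windows held this run, and these were the 2 Id windows. It contains TGACGTCA, the sequence known as the cAMP response element, which 0.276% of the SB windows held. The run and TGACGTCA were looked for after the sequences had been seen. No other pair of the 5 windows shared more than 12 bases, which was the length for Id3 and Id4.

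Over whole start windows, within 1 kb of the start on each side, the GTCTAGAC palindrome was absent from all 4 Id genes and present in 1.52% of all coding genes. GGCGCC was absent at Id1, single at Id2, and matched 2 times at Id3 and 3 times at Id4, where 39.3% of all genes had at least 1. CAGAC was found 3, 6 and 10 times at Id1, Id2 and Id3 and not at Id4, where 98.4% of all genes had at least 1 and the median gene had 4. CAGA was in every start window of the genome, with a median of 25 matches, and Id4 had 7 while Id1, Id2 and Id3 had 26, 24 and 28.

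At the gene starts, Id1 and Id4 had more tags in SB ChIP than in DMSO ChIP, and Id2 and Id3 did not pass the test. The test was a two-sided exact binomial test given the totals of both libraries, with the Benjamini-Hochberg adjustment of p across every gene tested and a threshold of 0.05. Id1 (ENSMUSG00000042745, chr2:152561987-152563146, plus strand) had 41 tags in Activin ChIP, 40 in DMSO ChIP and 77 in SB ChIP. Its inputs had 35, 32 and 42 tags in the same order. SB ChIP stood above all the other 5 libraries, which lay between 2.52 and 3.99 RPM (tags per 1000000 tags of the library) against its 7.89. The ratio of SB to DMSO ChIP was 2.54 (95% interval 1.71 to 3.82, adjusted p 0.000378), and that of SB to Activin ChIP was 2.53 (1.71 to 3.79, adjusted p 0.000118), each interval exact and for counting error only. Activin and DMSO ChIP were level, with a ratio of 1.00 (0.633 to 1.59).

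Id4 (chr13:48356796-48359405, plus strand) had 39 tags in Activin ChIP, 14 in DMSO ChIP and 41 in SB ChIP, and 17, 27 and 27 tags in the inputs. Here DMSO ChIP was the low library, at 1.09 RPM, below all the inputs. The ratio of SB to DMSO ChIP was 3.87 (2.06 to 7.68, adjusted p 0.00100 by the exact binomial test). SB against Activin ChIP gave 1.42 (0.891 to 2.25, adjusted p 0.421), and Activin against DMSO ChIP gave 2.73 (1.45 to 5.44, adjusted p 0.0682). Scaled by the GC class of the window, the SB call was lost (ratio 2.76, adjusted p 0.0748) and the Activin ratio passed (2.93, adjusted p 0.0400).

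Id2 (chr12:25778666-25780957, minus strand) had 39, 32 and 31 tags in Activin, DMSO and SB ChIP and 41, 39 and 33 in the inputs, and its 6 libraries lay between 2.48 and 3.55 RPM. Its SB to DMSO ratio was 1.28 (0.755 to 2.16). Id3 (chr4:135699412-135701670, plus strand) had 37, 23 and 33 tags in Activin, DMSO and SB ChIP and 25, 29 and 20 in the inputs, with a ratio of SB to DMSO of 1.89 (1.08 to 3.38, adjusted p 0.187) and of SB to Activin of 1.20 (0.728 to 1.98). With 2000 bp on each side, which takes in the intron pileup, Id3 passed against DMSO (2.18, adjusted p 0.00298) and Activin (1.85, adjusted p 0.0111). The highest pileup of Id2 lay outside its start window at either width.

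**Figure D1:**
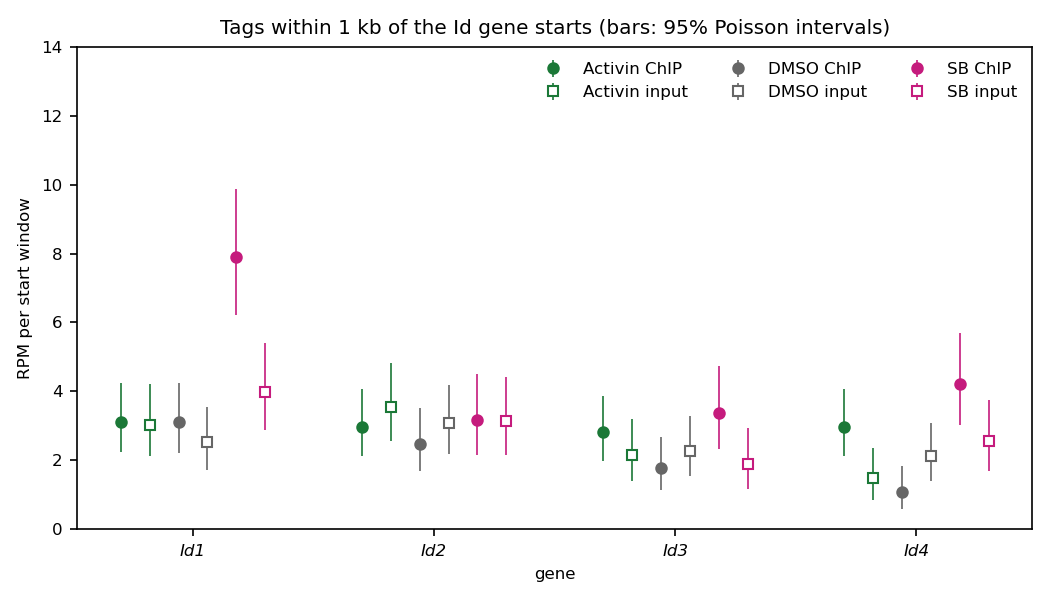
RPM within 1 kb of each Id gene start (vertical axis) by gene (horizontal axis) in the 3 ChIP libraries (filled circles) and 3 input libraries (open squares), with 95% Poisson intervals for counting error. SB ChIP stands alone at Id1, at 7.89 RPM, and DMSO ChIP is the lowest point at Id4, at 1.09.

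Against the genome, 2 of 4 Id genes were called higher in SB than in DMSO ChIP where 3.11% of all tested genes were, and 1 of 4 was called higher than in Activin ChIP where 7.72% were. Between Activin and DMSO ChIP 0 of 4 passed, where 0.880% of genes were called in either direction, and none of the 4 had an unadjusted p under 0.05 except Id4 (0.000829). Of the 6 other coding genes in these windows, none was called in any comparison of ChIP libraries. Cox4i2, whose start is the next one downstream of Id1, had 19, 20 and 20 tags in Activin, DMSO and SB ChIP.

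The input libraries bear on these ratios. None of the 4 Id genes was called between inputs, where 0.0138% of genes were called for SB against DMSO and 0.235% for SB against Activin. At Id1 the SB input was 1.59 times the DMSO input (0.978 to 2.60, adjusted p 0.702), the widest input difference of SB to DMSO among the 4. Set against its own input by a one-sided exact binomial test, SB ChIP at Id1 was 1.98 times higher (1.34 to 2.95, adjusted p 0.00644), a call that 5.94% of genes shared. Activin ChIP (2.68% of genes called) and DMSO ChIP (3.79%) were called above their input at 0 of 4 Id genes, and Id1 had ratios of 1.03 (0.639 to 1.66) and 1.23 (0.755 to 2.03).

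When the ChIP to input ratio of SB was set against that of DMSO in 1 exact conditional test, none of the 4 start windows passed, where 0.0597% of genes were called higher. Against Activin the same test called 0.0413% of genes higher and none of the Id genes. For Id1 the quotient was 1.60 to DMSO (0.842 to 3.04) and 1.92 to Activin (1.02 to 3.60, unadjusted p 0.0345). For Id4 it was 3.20 to DMSO (1.33 to 7.82, unadjusted p 0.00555, adjusted p 0.336) and 0.812 to Activin. So a difference over the input was detected at none of the 4 starts after adjustment.

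The peak lists held 15 positions within 50 kb of the Id genes, 3 from Activin, 5 from DMSO and 7 from SB. Positions closer than their windows were merged into 10 sites, each reaching from 1000 bp before to 500 bp after a position. Over the SB list the highest pileup lay at a median of 458 bp before the listed position, and before it in 97.0% of cases, so places are given here by the pileup or by the middle of the site. A site that stands in the SB list was chosen by the authors' caller for its SB tags, so a higher SB count there is in part what the listing selected. Of the 2439 sites in the SB list alone, 20.0% were called higher in SB than in DMSO ChIP and 30.1% higher than in Activin ChIP.

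Id4 had the tallest site. It lay 33.5 kb upstream, between genes, at chr13:48322502-48324080, and was listed in DMSO with 29 tags and in SB with 98. The counts were 40 tags in Activin ChIP, 39 in DMSO ChIP and 139 in SB ChIP, with 10, 14 and 25 in the inputs. SB was thus higher than DMSO by 4.70 times (3.28 to 6.89, adjusted p 8.15e-19 over all sites) and than Activin by 4.68 times (3.27 to 6.83, adjusted p 4.64e-19) in exact binomial tests. Of all sites listed in SB, 6.56% had more SB tags and 1.84% had a higher ratio of SB to DMSO. Within 100 bp of the SB pileup, SB ChIP had 121 tags, 58 on the plus and 63 on the minus strand, DMSO ChIP had 25, Activin ChIP 8 and SB input 5. The plus-strand tags began at a median of -82.0 bp and the minus-strand tags at 91.0 bp from the pileup. The 121 tags sat at 86 distinct positions and strands, and counted once for each of these the site had 104 SB tags, 37 DMSO tags and 33 Activin tags and kept both calls (3.50 and 4.25 times).

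The Id4 site was above its input in all 3 ChIP libraries, with ratios of 3.51 (1.73 to 7.88) in Activin, 2.75 (1.46 to 5.48) in DMSO and 5.99 (3.89 to 9.58) in SB. Its inputs also differed, SB input being 2.16 times DMSO input (1.08 to 4.49) and 2.74 times Activin input (1.27 to 6.40). In the 200 bp bin at the pileup, from 48323201 to 48323400, SB ChIP had 103 tags, DMSO ChIP 14 and Activin ChIP 7, while the inputs of Activin, DMSO and SB had 2, 0 and 6. The exact binomial test over all bins gave adjusted p of 1.59e-20 against DMSO and 8.28e-27 against Activin, where 1.39% and 2.27% of bins with at least 10 tags were called higher. This bin was picked for its SB tags and the bins at large were not, so these values are a description.

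Id2 had 2 sites, both in the SB list only and both upstream. The nearer one, 3.0 kb upstream at chr12:25783226-25784726 and listed with 62 tags, had 30 tags in Activin ChIP, 20 in DMSO ChIP and 71 in SB ChIP, and 9, 9 and 13 in the inputs. The ratio of SB to DMSO was 4.69 (2.82 to 8.13, adjusted p 3.73e-09) and of SB to Activin 3.19 (2.05 to 5.06, adjusted p 1.82e-06) in the exact binomial test. In 81 of the 4343 sites listed in SB, 1.87%, the ratio to DMSO was higher. SB ChIP stood 5.89 times above its input (3.23 to 11.6), and DMSO ChIP 2.19 times (0.954 to 5.47). The Activin tags of this site lay elsewhere in it. Within 100 bp of the SB pileup SB ChIP had 40 tags, DMSO ChIP 6 and Activin ChIP 2, and the Activin pileup was at -2293 bp from the start.

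The farther Id2 site, 5.1 kb upstream at chr12:25785347-25786847, had 10, 12 and 27 tags in Activin, DMSO and SB ChIP, and 14, 14 and 7 in the inputs. It passed against DMSO (2.97, 1.45 to 6.44, adjusted p 0.0168) and Activin (3.64, 1.71 to 8.42, adjusted p 0.00432) by the exact binomial test. Against DMSO the call did not survive a narrower window of 500 bp on each side (2.51, adjusted p 0.113) or 1 tag per position and strand (2.83, adjusted p 0.0726). At the start of Id2 itself, by contrast, the ratio of SB to DMSO ChIP stood at 1.28.

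Id3 had a site 1.5 kb downstream of its start, in the SB list only with 58 tags, at chr4:135700151-135701651. It had 22 tags in Activin ChIP, 27 in DMSO ChIP and 52 in SB ChIP, and 23, 14 and 21 in the inputs. SB exceeded DMSO by 2.54 times (1.57 to 4.21, adjusted p 0.00239) and Activin by 3.19 times (1.90 to 5.51, adjusted p 9.63e-05) in the exact binomial test. With 500 bp on each side of the position the ratio to DMSO was 2.27 (adjusted p 0.0504). The pileup lay in the intron, where the bin from 135700601 to 135700800 held 23 SB, 7 DMSO and 9 Activin ChIP tags (adjusted p 0.0248 and 0.0447, exact binomial). This bin too was picked for its SB tags, so its values are a description. With 1 tag per position and strand the bin had 20, 6 and 7 tags and passed in neither comparison (adjusted p 0.203 and 0.0876).

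A site 34.7 kb downstream of Id3, inside an intron of E2f2, a cell-cycle transcription factor gene, was also in the SB list only. It had 15, 28 and 36 tags in Activin, DMSO and SB ChIP and passed against Activin (3.23, 1.73 to 6.36, adjusted p 0.00159, exact binomial) but not DMSO (1.70, 1.01 to 2.89, adjusted p 0.157). A site 8.9 kb upstream of Id3 was listed in DMSO only, with 12 tags. It had 10, 26 and 9 tags in Activin, DMSO and SB ChIP, and its ratio of SB to DMSO was 0.457 (0.188 to 1.01, adjusted p 0.153).

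Id1 had a listed site 1.0 kb upstream, at chr2:152560065-152561815, in the DMSO list with 13 tags and in the SB list with 31. Over the whole site the counts were 33 tags in Activin ChIP, 33 in DMSO ChIP and 40 in SB ChIP, and 16, 19 and 20 in the inputs. The ratio of SB to DMSO, 1.60 (0.984 to 2.62, adjusted p 0.164), and of SB to Activin, 1.63 (1.00 to 2.67, adjusted p 0.141), did not pass the exact binomial test. The 3 ChIP libraries had their pileups close together, 12 tags high at -988 bp from the start in Activin, 15 at -1053 bp in DMSO and 26 at -1044 bp in SB. ChIP over input was 1.81 (0.969 to 3.52) in Activin, 1.71 (0.946 to 3.19) in DMSO and 2.16 (1.23 to 3.89) in SB.

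The start window of Id1 leaves out most of the upstream pileup, and it held another. In the coding exon the bin from 152562201 to 152562400, 214 to 413 bp past the start, had 22 SB ChIP tags against 4 in DMSO and 6 in Activin ChIP, and 6, 11 and 9 in the inputs of Activin, DMSO and SB. The bin passed against DMSO (adjusted p 0.00903) and Activin (adjusted p 0.0150) in the exact binomial test, yet it stood in no listed site of any treatment. It was picked for its SB tags as well, so passing is in part what the choice gave. With 1 tag per position and strand it had 17, 3 and 5 tags in SB, DMSO and Activin ChIP and did not pass (adjusted p 0.117 and 0.104), nor did it with bins of at least 5 tags (adjusted p 0.0663 and 0.116). Around the exon pileup the plus-strand tags began at a median of -138 bp and the minus-strand tags at 137 bp.

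For each Id gene the 3 bins with the most SB ChIP tags were looked up, 12 in all, and their counts are a description because SB tags chose them. Of the 12, 8 lay in listed sites, 5 passed against DMSO and 8 against Activin, each time with SB higher. Of all bins with at least 10 tags, 1.39% and 2.27% were called higher. Those bins were not picked by SB tags, so the shares are no like comparison for these counts or those below. With 1 tag per position and strand 2 of the 11 that could still be tested passed against DMSO, 1 each at the Id2 and Id4 sites, and 5 of 12 passed against Activin, 2 each at Id2 and Id4 and 1 at Id3. Of the 4 bins outside listed sites only the Id1 exon bin passed in either comparison. The others were a bin at -12386 to -12187 bp from the Id1 start (15 SB, 5 DMSO and 5 Activin tags), a bin in an E2f2 intron near Id3 (13, 5 and 5) and a bin just upstream of the Id4 start (9, 2 and 8).

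The other sites near Id1 lay in or over neighbouring genes, and which gene they act on was not tested. The strongest, 48.6 kb upstream over the start of Mcts2, a gene inside an intron of H13, was in all 3 lists and had 94, 102 and 65 tags in Activin, DMSO and SB ChIP. Its ratio of SB to DMSO was 0.841 (0.607 to 1.16). A site 29.1 kb upstream, in a UTR of H13, was listed in Activin only and had 31, 36 and 37 tags. A site 33.6 kb downstream, in an intron of Bcl2l1, an anti-apoptotic gene, was listed in DMSO only and had 21, 37 and 11 tags, so that SB was lower than DMSO (0.392, 0.181 to 0.786, adjusted p 0.0418, exact binomial). That call was lost with 1 tag per position and strand (0.448, adjusted p 0.219).

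**Figure D2:**
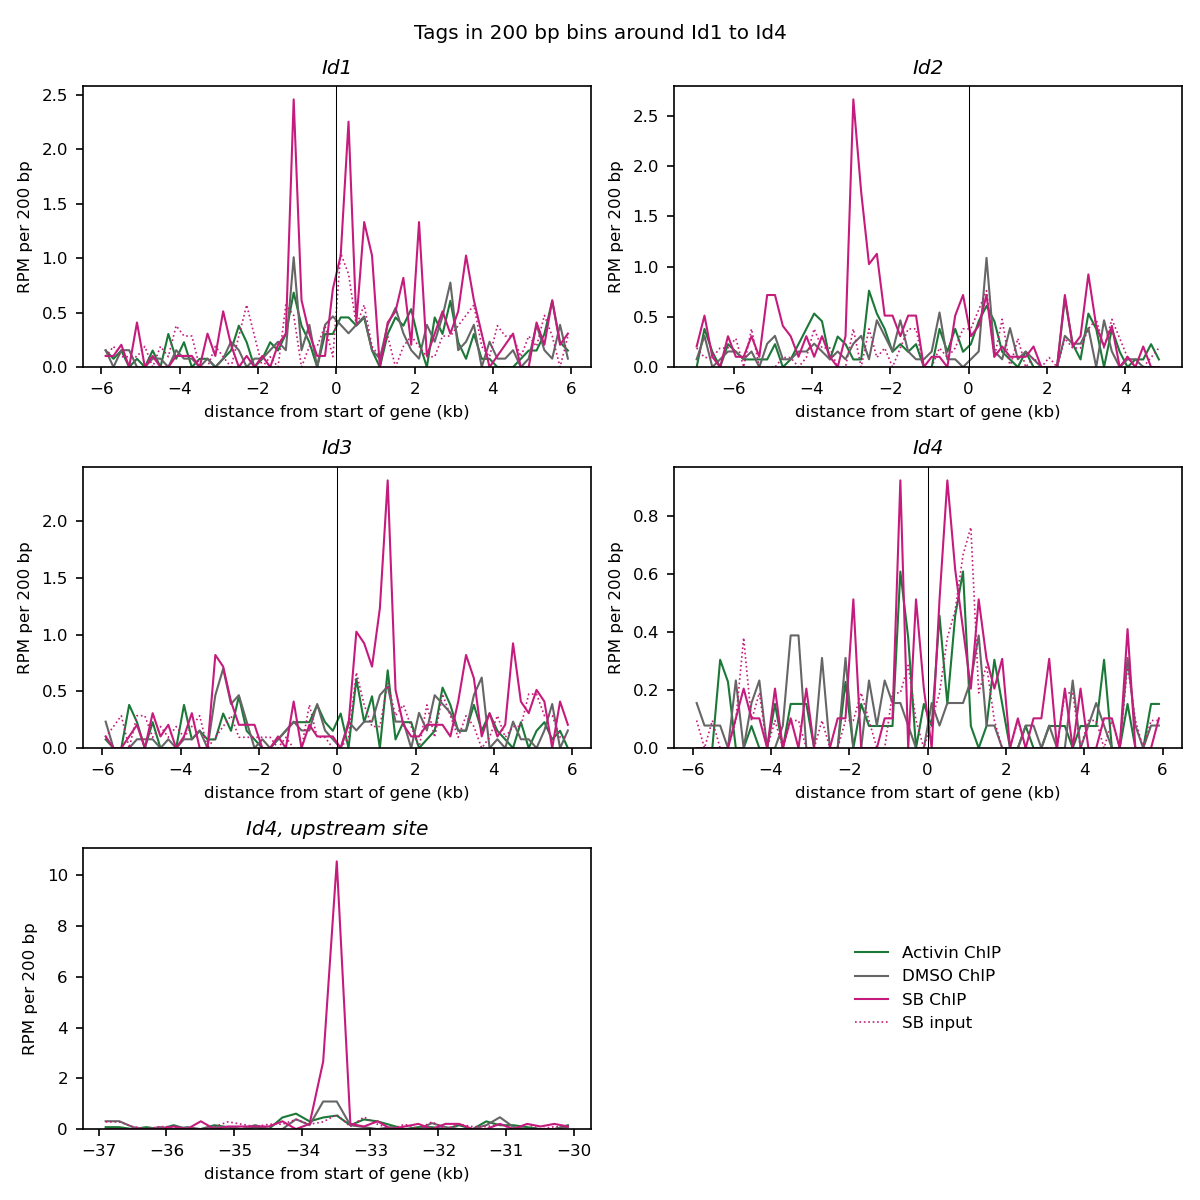
RPM in 200 bp bins (vertical axes, each on its own scale from 0) against the distance from the gene start in kb (horizontal axes, upstream negative) for the 3 ChIP libraries and SB input. The SB line peaks upstream of Id1 and in its exon, upstream of Id2, in the intron of Id3, and highest, at 103 tags in a bin, 33.5 kb upstream of Id4.

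By count, 4 of the 10 sites were called higher in SB than in DMSO ChIP, where 6.85% of all 11511 sites were, and 5 of 10 higher than in Activin ChIP, where 12.9% were. Of the 4 sites in the SB list alone, 3 were higher than DMSO and 4 higher than Activin, where 20.0% and 30.1% of such sites were. Of the 2 sites in the DMSO and SB lists together, those of Id1 and Id4, 1 was higher in each comparison, where 7.11% and 33.9% of such sites were. Of the 10, 1 was lower in SB than in DMSO (6.70% of all sites), and between Activin and DMSO 0 of 10 passed (13.2% of all sites).

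Set against the inputs in the exact conditional test, a test chosen after the values were seen, none of the 10 sites passed. Over all sites 0.599% were called higher against DMSO and 0.921% against Activin. The quotient of the ChIP to input ratios, SB to DMSO, was 2.18 (0.949 to 4.84, unadjusted p 0.0580) at the Id4 site, 2.68 (0.871 to 7.92, unadjusted p 0.0557) and 4.92 (1.39 to 18.0, unadjusted p 0.00640) at the nearer and farther Id2 sites, and 1.40 (0.563 to 3.43) in the Id3 intron. At 2 sites in the DMSO list alone it lay below 1, at 0.280 (0.101 to 0.762, unadjusted p 0.00799) 33.6 kb downstream of Id1 and at 0.231 (0.0691 to 0.755, unadjusted p 0.0105) 8.9 kb upstream of Id3. SB to Activin, it was 1.71 (0.672 to 4.05) at Id4, 2.01 (0.678 to 5.71) at the nearer Id2 site and 3.18 (1.36 to 7.40, unadjusted p 0.00530) in the Id3 intron. The farther Id2 site came closest to passing, at 6.63 (1.81 to 25.1, adjusted p 0.0673 by the exact conditional test). The inputs held 7 to 25 tags per site there, which sets the width of these intervals.

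SB ChIP held more tags in GC-rich DNA throughout the genome, and this was measured outside listed sites. In 200 bp bins the ratio of SB to DMSO ChIP rose from 0.784 under 30% GC to 1.36 at 60 to 65%, 1.66 at 65 to 70% and 2.14 from 70% on. SB to Activin ChIP rose from 0.822 to 3.34 over the same classes. The inputs moved the same way, from 0.893 to 1.42 for SB to DMSO and from 0.849 to 2.52 for SB to Activin. Around the Id genes, the bins in no listed site ran close to the genome, with SB to DMSO at 1.02 to 1.14 times the ratio their GC gave and SB to Activin at 1.01 to 1.10 times. The highest of these, 1.14 around Id1, had an interval of 1.04 to 1.25.

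**Figure D3:**
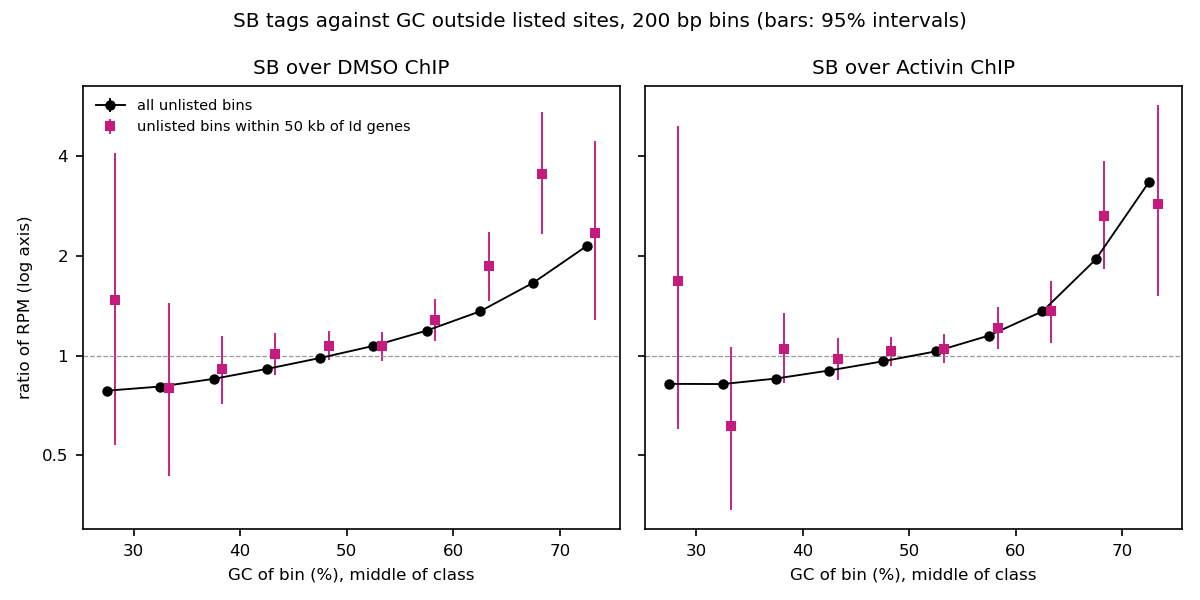
Ratio of SB to DMSO ChIP (left) and to Activin ChIP (right) in RPM on a log axis, against the GC of 200 bp bins outside listed sites in classes of 5 points, the outer classes being all bins under 30% and from 70% on, with 95% intervals. The genome line climbs from 0.784 to 2.14 and from 0.822 to 3.34, and the squares for bins within 50 kb of Id genes, drawn slightly to the right, lie near it in most classes. Among the squares off the line, those at 65 to 70% stand at 3.52 against DMSO and 2.64 against Activin, and those under 30%, which rest on 10 SB tags, at 1.47 and 1.68 with wide intervals.

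Among the nearby bins of 60% GC or more, the excess over the genome differed between the comparisons. Against DMSO these unlisted bins held 1.41 (1.08 to 1.85), 2.28 (1.19 to 4.60), 1.32 (0.906 to 1.93) and 1.71 (0.953 to 3.19) times the SB tags that GC gave around Id1, Id2, Id3 and Id4. Against Activin the values were 1.23, 1.21, 0.917 and 0.822, and all 4 intervals included 1. In the inputs of the same bins, SB to DMSO stood at 1.32 (1.02 to 1.71), 1.43 (0.783 to 2.67), 0.915 (0.657 to 1.27) and 1.35 (0.774 to 2.40) times the GC expectation. Around Id1 the input excess was thus close to that of the ChIP. For SB to Activin input the values were 1.09, 0.906, 0.997 and 1.22. The Id1 bins include the coding exon described above.

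Of the 10 listed sites, the 4 called higher in SB in both comparisons also had intervals above 1 after GC was taken into account. Against DMSO, though, not all stood above the nearby GC-rich bins. These 4 were picked by calls on the same counts, and all stand in the SB list. The expectation came from unlisted bins, so an excess over it is in part what the selection gave. The Id4 site had 3.03 times (2.11 to 4.44) the SB tags expected from DMSO and GC, and 2.98 times (2.11 to 4.28) those expected from Activin and GC. The nearer Id2 site had 3.25 times (1.96 to 5.64) and 2.26 times (1.48 to 3.53), the farther one 2.06 times (1.08 to 4.08) and 2.92 times (1.47 to 6.15), and the Id3 intron site 2.05 times (1.31 to 3.27) and 2.18 times (1.36 to 3.60). Against DMSO the farther Id2 site lay below the 2.28 of the unlisted GC-rich bins around Id2, and the interval of the nearer one included that value. The interval of the Id3 intron site likewise included the 1.32 of such bins around Id3. The Id4 site stood above the 1.71 of its bins, but the interval of those bins (0.953 to 3.19) included the site's 3.03. Against Activin such bins stood at 1.21, 0.917 and 0.822 around Id2, Id3 and Id4, and the intervals of all 4 sites lay above these values. At the Id1 upstream site the values were 1.27 (0.816 to 1.99) and 1.37 (0.868 to 2.18), and both intervals included 1. These values carry no test. Their intervals treat the GC expectation as fixed.

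The start windows divided differently. Id1 kept an excess over GC against both libraries, 1.94 (1.37 to 2.75) to DMSO and 2.07 (1.46 to 2.97) to Activin. Id4 kept one against DMSO alone, 2.19 (1.22 to 4.10), and had 0.766 (0.485 to 1.21) to Activin. Id3 had 1.75 (1.08 to 2.90) and 1.27 (0.804 to 2.02), and Id2 had 1.15 (0.689 to 1.90) and 0.992 (0.603 to 1.62). The Id3 bins likewise took in a bin of its listed intron site, with 12 SB, 6 DMSO and 0 Activin tags. In the adjusted test scaled by GC class, which counted within exactly 1 kb, Id1 kept its calls (2.26, adjusted p 0.00812, and 2.32, adjusted p 0.00288, exact binomial). In the same test Id4 lost its call against DMSO, as given above. With 1 tag per position and strand added to that scaling, a combination chosen after the values were seen, Id1 no longer passed (2.07, adjusted p 0.262, and 1.99, adjusted p 0.111).

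**Figure D4:**
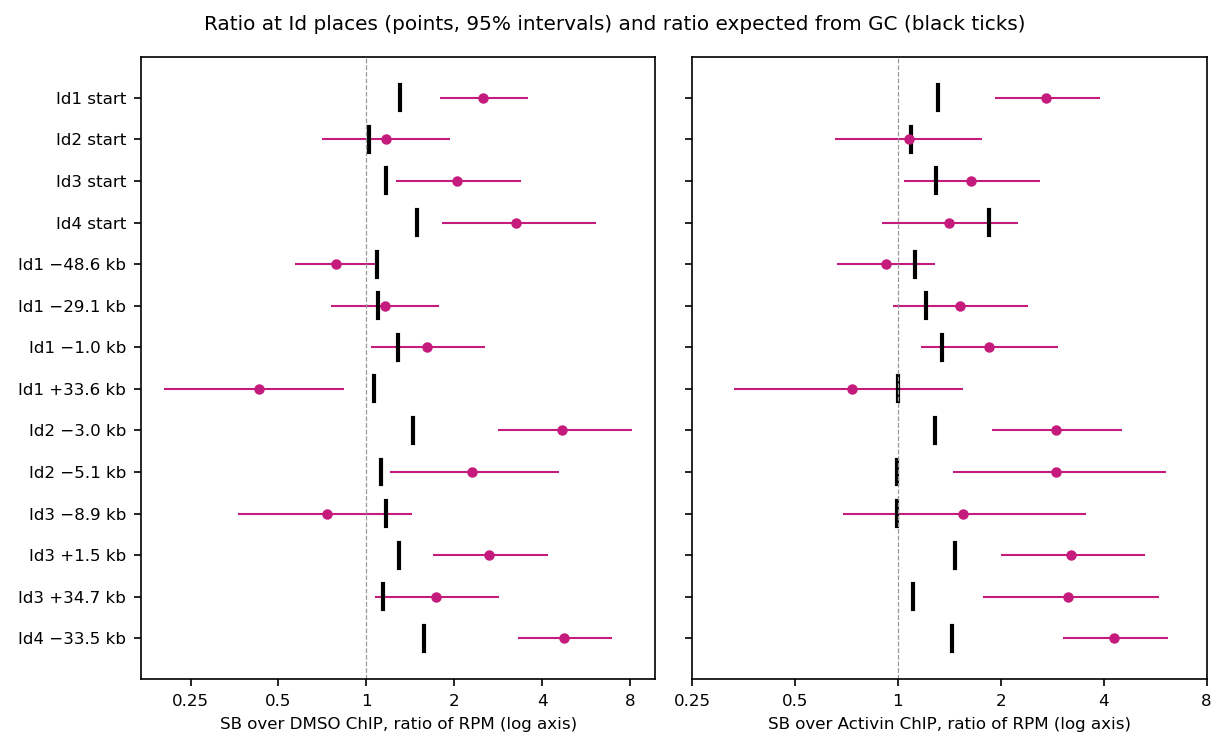
Ratio of SB to DMSO ChIP (left) and to Activin ChIP (right) on log axes, as points with 95% exact intervals, for the 4 start windows and 10 listed sites, named by gene and distance of the site's middle from the gene start, with the ratio expected from GC as a black tick. The points of the Id4 site 33.5 kb upstream and the Id2 site 3.0 kb upstream lie right of their ticks in both panels, at 3.03 and 3.25 times the expected value against DMSO.

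The study designed ChIP-PCR primers for Id1, Id2 and Id3, and each pair matched exactly 1 place in the genome. The paper reports real-time PCR of ChIP DNA at these genes and describes pSmad2 binding there under SB only. These primers are shown because they name the places the study chose for measuring.
Id1 forward: acgacatgaacggctgctact
Id1 reverse: ttgctcactttgcggttctg
Id2 forward: cccggagcagactctctgg
Id2 reverse: ttgcaggcattgatcagctg
Id3 forward: tccgcctgtggtcctttg
Id3 reverse: cggtctctacctccagctgataa
The Id1 product (chr2:152562255-152562327, 73 bp) lay in the coding exon, on the unlisted pileup and not at the listed upstream site. The Id2 product (chr12:25783711-25783855, 145 bp) and the Id3 product (chr4:135700620-135700695, 76 bp) lay on the SB pileups shown above.

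Fragments that overlapped the Id1 product numbered 28 in SB ChIP, 5 in DMSO ChIP and 6 in Activin ChIP, and 13, 12 and 13 in the Activin, DMSO and SB inputs. SB ChIP was 2.32 times (1.16 to 4.88) its input there, and the other 2 ChIP libraries had fewer tags than their inputs. The Id2 product had 42 fragments in SB ChIP, 6 in DMSO ChIP and 2 in Activin ChIP, with 0, 2 and 4 in the inputs, and SB ChIP was 11.3 times (4.11 to 43.5) its input. The Id3 product had 31, 10 and 9 fragments in SB, DMSO and Activin ChIP, with 3, 1 and 7 in the Activin, DMSO and SB inputs, and SB ChIP was 4.77 times (2.06 to 12.8) its input. At all 3 products SB ChIP was the highest library. These counts are a description, since the products overlap pileups of the same libraries.

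Other genes of the pathway were read at their starts. The list held 22 genes, which are E proteins, BMP ligands and receptors, BMP Smads and known BMP targets. Against DMSO 1 of 22 was called higher in SB ChIP and 0 lower, where 3.11% of all genes were called higher, and against Activin 4 were called higher and 0 lower, where 7.72% were called higher. The median ratio of the list was 1.38 to DMSO and 1.83 to Activin, beside 1.18 and 1.23 over all genes. The inputs of the list moved the same way, with medians of 1.27 for SB to DMSO and 1.46 for SB to Activin, beside 1.09 and 1.17. The medians of the quotient over input were 1.12 and 1.21, beside 1.09 and 1.04. The start windows of the list also had more GC, with a median of 58.6% against 51.1% over all genes, and set against the ratio that GC gave, the median of the list was 1.01 to DMSO and 1.15 to Activin. Scaled by GC class, or with 1 tag per position and strand, none of the 22 was called in either comparison. The gene called against DMSO was Msx1, a homeobox target of BMP (2.84, 1.43 to 5.98, adjusted p 0.0448, exact binomial). Those called against Activin were Msx2, a second homeobox target (2.70, adjusted p 0.0246), the ligand gene Bmp7 (2.62, adjusted p 0.0249), the T-box gene Tbx3 (1.91, adjusted p 0.0327) and Tcf12, which encodes an E protein partner of the Id proteins (2.92, adjusted p 0.0274). None of the 22 passed the conditional test over input. Smad6, an inhibitory Smad and BMP target, had ratios of 1.32 (0.881 to 1.98) and 1.37 (0.916 to 2.06).

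The genes closest to each Id gene over the 6 libraries were then looked up. Among 18888 genes with at least 20 ChIP tags in the start window, likeness was measured as the Euclidean distance of the log2 of RPM, with 0.5 added to each, over the 6 libraries, where a small value is a close pattern. The closest genes lay at 0.297 to 0.400 for Id1 (Gab1, AA960436 and Zfp319), at 0.178 to 0.218 for Id2 (Coq10a, Tmem59l and Polr3d), at 0.166 to 0.246 for Id3 (Sarnp, Ormdl2 and Tnrc6c) and at 0.332 to 0.382 for Id4 (Aagab, Iqch and Ttc19). No Id gene was among the 3 closest of another. Of the pairs of Id genes, Id3 and Id4 were the nearest, at 0.823, and Id1 and Id4 the farthest, at 1.78, and these distances were not set against those between other genes or against counting error. Sarnp and Ormdl2 start 140 bp apart, as Aagab and Iqch do at 162 bp, so each pair shares most of its tags.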

How the data were processed

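pSmad2 ChIP-Seq of mouse embryonic stem cells gave 6 libraries, 1 ChIP and 1 input for each of 3 treatments. The authors deposited aligned 35 bp tags on mm9 (the build in the submitters' processing notes), and for each ChIP a list of MACS peaks called against the input with a position and a count of tags. Not given in the sources used here were the aligner and the MACS version. Values analysed here are counts of the deposited tags, taken at the middle of a 200 bp fragment.

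Gene starts came from GENCODE M1 (NCBIM37), 1 per protein-coding gene on 20 chromosomes. Tags were counted within 1000 bp of each start, in listed sites (1000 bp before to 500 bp after a position, overlapping ones merged, 11511 in all) and in 200 bp bins with at least 10 tags in both libraries together. Libraries were compared by two-sided exact binomial tests given the total tags, ChIP with its input by one-sided ones, and ChIP over input between treatments by an exact conditional test. The Benjamini-Hochberg adjustment ran across every feature of a comparison, with a threshold of 0.05. Intervals are 95% Clopper-Pearson for single ratios and exact conditional for quotients. Tags carry no molecular identifiers, so intervals cover counting error only. The GC expectation is the ratio in unlisted bins of each class of 5 GC points, weighted by the tags of the other library. It was set against the tags of all whole 200 bp bins that a window or site touched.

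Named were the 4 Id genes, the coding genes and listed positions within 50 kb, the 3 bins with most SB ChIP tags per gene, up to 8 pathway genes called, and the 3 genes closest to each Id gene. Of the other coding genes, Kidins220 lies near Id2. The members and lists were chosen with earlier results of these data known. Alternatives were 1 tag per position and strand, other scalings, windows and minimum counts. The tests were tested on simulated data. Python 3.11.15, numpy 2.4.6, pandas 2.3.3 and scipy 1.17.1 were used.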

Additional observations from a re-analysis of the deposited data

How the results depend on the processing

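Each treatment had 1 library, so no replicate could be left out, and depth limits the quotients over input. No paired analysis was possible because each group has 1 library and the tests compare 2 libraries. No called ratio at an Id gene, site or bin changed direction under any alternative. Keeping 1 tag per position and strand changed the number of called start windows from 719 to 111 for SB against DMSO ChIP, from 1751 to 916 for SB against Activin ChIP and from 191 to 5 for Activin against DMSO ChIP. For the inputs it changed from 3 to 0 for SB against DMSO and from 51 to 19 for SB against Activin, and for the quotients over input from 16 to 0 against DMSO and from 13 to 1 against Activin. Called sites went from 1560 to 445, from 2225 to 1317 and from 1517 to 266 in the same order of ChIP comparisons, and called bins from 2788 to 69 for SB against DMSO and from 4348 to 615 for SB against Activin. Scaling by GC class left 129 start windows for SB against DMSO and 390 for SB against Activin, and both changes together left 6, 74 and 5 for the 3 ChIP comparisons. A window of 500 bp on each side gave 94 for Activin against DMSO. Testing bins with at least 5 tags gave 359 and 922 called bins, where more bins were tested. The ratio of SB to DMSO ChIP in unlisted bins of 60% GC or more was 1.58, 1.65 in 500 bp bins and 1.47 with 1 tag per position and strand, and that of SB to Activin was 1.75, 1.92 and 1.57. Of the cause of these changes, only the number of bins tested is shown by construction, and for the others the cause was not tested. Of the single ratios at Id genes, sites and bins, 383 stayed on their side of the threshold or within their interval, 21 calls were lost and 4 were gained.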

Other observations

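The GGCGCC sequence, which all 4 Id windows outside exons held, was set against the SB ratio over the whole SB list. This split was chosen after the Id sequences were seen, and the values are a description with no test. Among the sites with 60% GC or more at the highest SB pileup, the 152 with GGCGCC had a median ratio of SB to DMSO ChIP of 1.44 and the 1099 without it also 1.44, and 26.3% and 23.7% were called higher in SB. Against Activin the medians were 1.83 and 1.69, and 53.9% and 45.7% were called. The windows with GGCGCC had a median GC of 69.2%, against 65.6% without it.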
